A study of Mus musculus with 24 samples.

Results

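Fhl1, Fhl2 and Fhl3 encode LIM-only proteins, Srf encodes serum response factor, and Mrtfa and Mrtfb encode the myocardin-related transcription factors. These 6 genes, of 78298 in each count table, were followed in granulosa cells and oocytes of cultured mouse follicles. They were found by symbol, 1 row per gene in each table, and were chosen because Fhl2 was higher and Fhl1 lower in granulosa cells after blebbistatin. The values of that contrast are therefore a description of how the genes were chosen and carry no test. All 6 groups came from wild-type follicles enclosed in alginate and kept to day 3 in serum-containing medium with ITS and FSH at 50 mIU/ml. A control group, a group with 20 µM blebbistatin and a group with dextran at 10 kPa were each sampled as granulosa cells and as oocytes, with 4 libraries per group and 24 in all. Blebbistatin inhibits the motor activity of myosin II, and dextran is a polysaccharide that exerts osmotic pressure on the follicle. Follicles beyond 180 µm were separated mechanically. Each oocyte library pooled 1 to 2 oocytes and each granulosa cell library many more cells, and the labels name no sort. The labels name neither the animals and cultures behind the replicates nor a solvent in the control medium, so p-values measure the spread between these libraries, which may be in part technical.

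SRF is a transcription factor that binds the CArG box, a short DNA element in the promoters of actin, tropomyosin and other cytoskeletal genes. MRTF proteins bind monomeric actin in the cytoplasm. When actin polymerises they are released, enter the nucleus and act with SRF, so the pair links the state of the actin cytoskeleton to transcription. FHL proteins consist of LIM domains, zinc-binding modules that bind other proteins, and are found at focal adhesions, on actin fibres and in the nucleus. FHL2 is known to bind SRF and to compete with MRTF for it, and Fhl2 is itself a target of SRF. FHL1 is abundant in striated muscle, where it binds titin. Nothing in RNA levels reports on the location or activity of these proteins.

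Promoter windows of all 6 genes were matched by symbol in RefSeq (GRCm38.p6), 11 windows in all, each reaching from 250 bases before to 50 after an annotated transcription start. The CArG box was searched as CC, then 6 bases that are each A or T, then GG. The pattern reads alike on both strands, and no other motif was searched. It occurred in 4 of the 11 windows, those of the first start of Fhl1, the first and second starts of Fhl2, and Srf. Each of the following stretches is shown because it carries the boxes, set in capitals, and ends at the last base before the start. The Fhl1 stretch lies at chrX:56779563-56779682 on the plus strand. Those of Fhl2 lie on the minus strand at chr1:43196762-43196881 for the first start and chr1:43163962-43164081 for the second. The Srf stretch lies at chr17:46556163-46556282 on the minus strand.
Fhl1, first start: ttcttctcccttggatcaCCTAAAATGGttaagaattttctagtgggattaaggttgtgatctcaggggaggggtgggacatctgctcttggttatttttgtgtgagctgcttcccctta
Fhl2, first start: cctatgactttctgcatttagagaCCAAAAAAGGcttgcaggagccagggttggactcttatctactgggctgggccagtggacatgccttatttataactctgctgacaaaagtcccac
Fhl2, second start: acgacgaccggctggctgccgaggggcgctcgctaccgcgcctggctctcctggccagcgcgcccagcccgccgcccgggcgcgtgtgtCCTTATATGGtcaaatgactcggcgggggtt
Srf: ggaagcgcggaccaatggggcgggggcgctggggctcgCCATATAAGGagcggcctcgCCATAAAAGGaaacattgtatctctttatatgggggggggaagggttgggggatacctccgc

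The box of Fhl1 began 102 bases before the start. The boxes of Fhl2 began 96 bases before its first start and 31 before its second. The Srf promoter held 2 boxes, beginning 82 and 62 bases before the start. Among all 32851 RefSeq windows, 535 (1.63%) held at least 1 box, and 6 (0.0183%) held 2 or more. The window of the second Fhl1 start and the windows of Fhl3, Mrtfa and Mrtfb held none, which says only that these letters are not in those windows. For scale, 6 of the 27 matched genes in a list of known SRF and MRTF targets held a box in a window (22.2%), against 1.81% of all 27025 genes. A match is a description of the sequence and not evidence of binding.

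**Figure D1:**
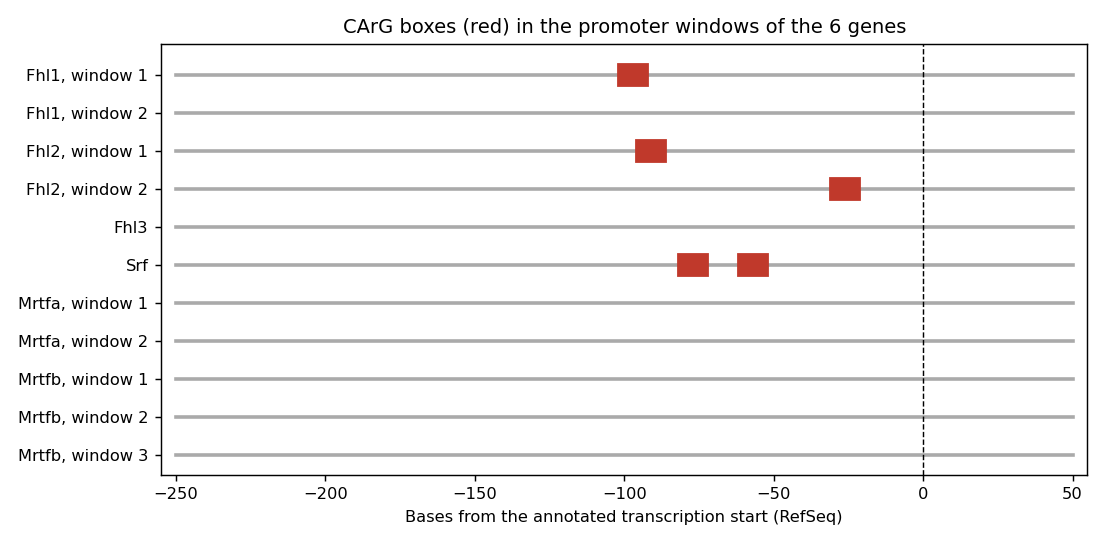
Position of CArG boxes (red) in the 11 promoter windows of the 6 genes, with the base distance from the annotated transcription start on the x axis. Boxes are present for Fhl1, Fhl2 and Srf, all within 102 bases before the start. They are absent from the second Fhl1 window and from the windows of Fhl3, Mrtfa and Mrtfb.

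The depth was 16432298 to 22431013 estimated counts in a granulosa cell library and 14244103 to 18399551 in an oocyte library. Levels are given as CPM, counts divided by the library's scaled size in units of 1e6, scaled within each cell type, and are compared between libraries but not between genes, because gene lengths were not used. The summed level of 11 granulosa cell markers lay between 16949 and 32806 CPM in granulosa cell libraries, and that of 10 oocyte markers between 12610 and 22521 CPM in oocyte libraries. Some granulosa cell libraries stood apart. The blebbistatin library of replicate 1 had 14538 genes detected against 18605 to 24297 in the other 11, and the blebbistatin libraries of replicates 1 and 2 had immune cell markers summing to 666 and 1006 CPM against 1.49 to 10.6 in the others. Of the oocyte libraries, control replicate 2 held the most granulosa cell marker RNA, 2390 CPM against 61.2 to 572 in the others. In such bulk samples fewer cells of a type and less RNA per cell cannot be told apart.

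Between the cell types in control medium, Fhl1 and Fhl2 were found in granulosa cells and nearly absent from oocytes, while Srf and Mrtfa were higher in oocytes. Fhl1 and Fhl2 passed the filter on low counts only through granulosa cells, whose control libraries also entered the choice of these genes, so their values are a description with no test. Fhl1 (ENSMUSG00000023092) measured 6.07, 6.83, 12.8 and 76.2 CPM in the 4 control granulosa cell libraries and 0.134, 0.212, 0.493 and 0 CPM in the 4 control oocyte libraries. The groups did not overlap, and the spread within granulosa cells came from 1 high library. Summed over libraries these were 1826 and 14 estimated counts, a ratio of 106 after scaling (95% exact binomial interval 63.2 to 195, counting error only). The fitted log2 difference, oocytes minus granulosa cells, was -6.52 ± 1.32 (SE). It was -4.96 without granulosa cell control replicate 4, the high library, and -7.28 without oocyte control replicate 3.

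Fhl2 (ENSMUSG00000008136) measured 12.8, 2.89, 10.2 and 15.8 CPM in control granulosa cells, against 0, 0.106, 0 and 0 CPM in control oocytes. All 4 granulosa cell values lay above all 4 oocyte values. The sums were 821 and 2 counts, a ratio of 334 with a 95% interval of 92.3 to 2766. The 2 oocyte counts fell in control replicate 2, the library with the most granulosa cell marker RNA, and the part of such RNA in them was not tested. Under treatment the oocyte values stayed near the detection limit. Fhl1 had no count in any of the 8 treated oocyte libraries, where 3 counts correspond to at most 0.215 CPM, and Fhl2 summed to 7 counts after blebbistatin and 1 after dextran.

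Fhl3 (ENSMUSG00000032643) passed the filter on low counts in neither cell type. Its counts in granulosa cells were 1, 0, 3 and 0 in control, 1, 2, 9 and 4 after blebbistatin and 1, 2, 0 and 2 after dextran. The groups overlapped, with the highest value in blebbistatin replicate 3. In oocytes it had 2 counts in dextran replicate 3 and none in the other 11 libraries. No difference in Fhl3 was detectable at this depth.

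Srf (ENSMUSG00000015605), the shared DNA-binding partner, had the opposite distribution to Fhl1 and Fhl2. It measured 3.46, 3.21, 3.99 and 1.74 CPM in control granulosa cells and 17.5, 18.4, 26.2 and 25.1 CPM in control oocytes. The groups were well apart, and the log2 difference, oocytes minus granulosa cells, was 3.14 ± 0.66 (SE; edgeR quasi-likelihood test, adjusted p = 0.0002492). Mrtfa (ENSMUSG00000042292) measured 14.2, 10.5, 10.6 and 6.96 CPM in control granulosa cells and 16.3, 20.2, 20.6 and 18.4 CPM in control oocytes. Every oocyte value exceeded every granulosa cell value, with a log2 difference of 1.18 ± 0.31 (SE; edgeR, adjusted p = 0.002059). Mrtfb (ENSMUSG00000009569) measured 37.4, 34.3, 36.9 and 42.3 CPM in granulosa cells and 37.0, 43.9, 37.7 and 40.4 CPM in oocytes. These ranges overlapped, and the log2 difference of 0.43 ± 0.27 (SE) did not pass (edgeR, adjusted p = 0.1449).

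Of Srf, Mrtfa and Mrtfb, which passed the filter in both cell types, Srf and Mrtfa differed between the cell types, but 77.3% of all 20601 genes tested did so (44.4% higher and 32.9% lower in oocytes), so a difference of this kind is the usual case in these data. The median log2 difference of all genes was 0.41, so relative to it Srf stood at 2.73, Mrtfa at 0.77, Mrtfb at 0.02 and Fhl1 at -6.93. With the replicate number as a block, the call of Mrtfa was lost (edgeR, adjusted p = 0.176). That block was fitted within each cell type, so the contrast is of values fitted for replicate 1 only. It is not a difference adjusted over all replicates. Pairing of same-numbered libraries across the cell types was not checked, and the main tests treat all 24 libraries as independent.

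The order of group means differed between the genes. For Fhl1 it was granulosa cells with dextran (41.4 ± 12 CPM, SD, n = 4), control (25.5 ± 33.9) and blebbistatin (3.22 ± 2.70), then the 3 oocyte groups, and each group overlapped the next. For Fhl2 the order was granulosa cells with blebbistatin (51.6 ± 23.1 CPM), which did not overlap the next group, then control (10.4 ± 5.51) and dextran (7.67 ± 2.29), which overlapped, then the oocyte groups, which lay apart from these. For Srf and Mrtfa the 3 oocyte groups had the higher means and the 3 granulosa cell groups followed, overlapping in turn. For Srf the oocyte groups overlapped one another and all lay apart from granulosa cells. For Mrtfa the oocyte group with dextran overlapped the other oocyte groups, and its lowest library (14.5 CPM) lay under the highest granulosa cell library with blebbistatin (15.0 CPM). Mean Srf ran from 18.3 to 21.8 CPM across oocyte groups and from 3.10 to 4.00 CPM across granulosa cell groups. Mean Mrtfa ran from 18.9 to 25.6 CPM and from 9.08 to 10.6 CPM. Mrtfb was the most even of the 6 genes. Its group means lay between 34.7 and 39.7 CPM in 5 groups, and neighbouring groups overlapped throughout. The sixth, granulosa cells with blebbistatin, had 22.1 ± 11.5 CPM.

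**Figure D2:**
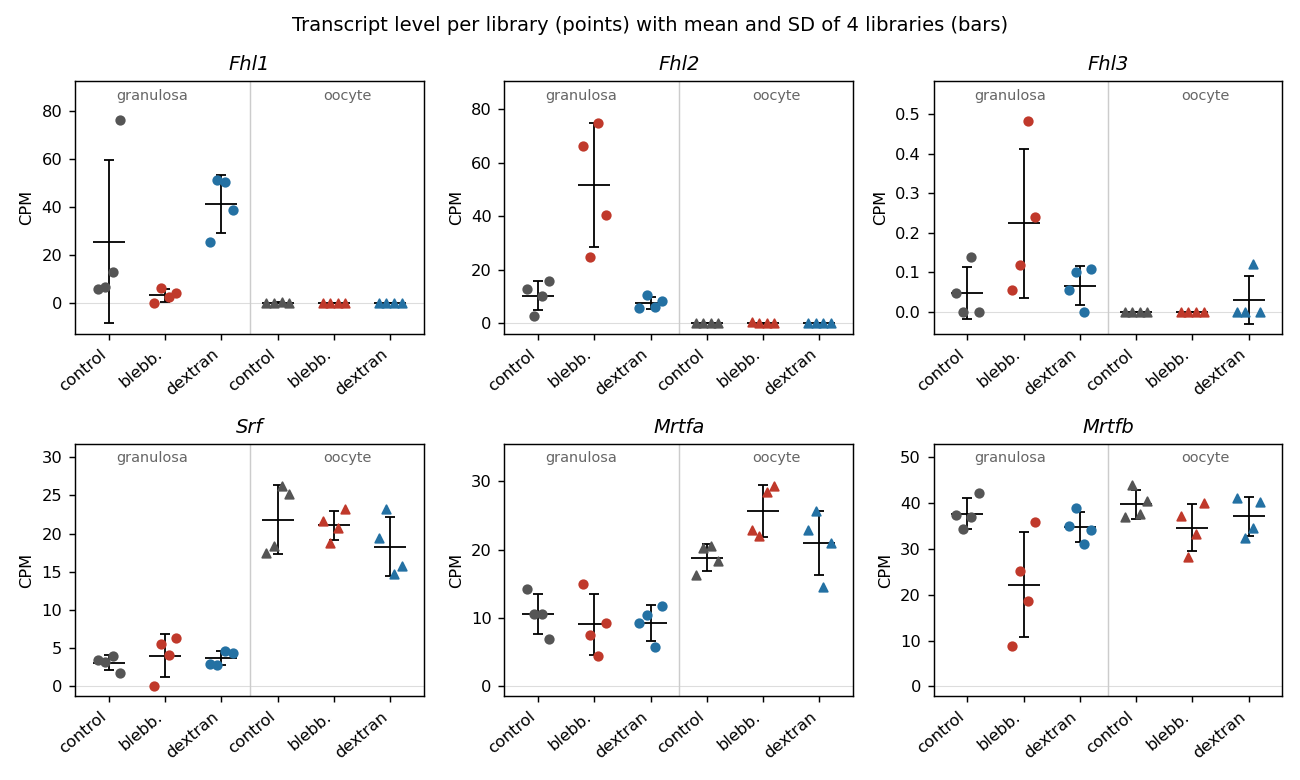
CPM of each gene in each library (points: circles for granulosa cells, triangles for oocytes), with the mean and SD of the 4 libraries of a group as bars; each panel has its own linear scale. Fhl2 stands out in granulosa cells with blebbistatin (24.8 to 74.9 CPM), Fhl1 has 1 high control library at 76.2 CPM, Srf lies higher in every oocyte library than in any granulosa cell library, and Mrtfa lies higher in the oocyte groups except for 1 dextran library at 14.5 CPM, under 1 granulosa cell library at 15.0 CPM.

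In granulosa cells with blebbistatin, the contrast that chose the genes, Fhl2 measured 66.2, 24.8, 74.9 and 40.6 CPM, against 2.89 to 15.8 CPM in control. All treated libraries lay above all control libraries, and the log2 difference was 2.31 ± 0.49 (SE), or 4.96-fold. Fhl1 measured 0, 6.36, 2.36 and 4.15 CPM after blebbistatin, against 6.07 to 76.2 CPM in control. Its 0 was in blebbistatin replicate 1, where the fewest genes were detected. The ranges overlapped by 1 treated library, and the log2 difference was -2.98 ± 1.04. Without control replicate 4, the high library, it became -1.40 ± 0.88, and the Fhl2 difference became 2.60. Of the 5 members that passed the filter, 1 was higher and 0 lower without overlap. Of the 15370 genes tested 2.46% were higher and 4.14% lower in that way. Over all genes 0.00651% passed adjustment, and nothing is read from these shares for genes chosen on this contrast.

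The 3 members of the transcription factor pair differed less. Srf measured 0, 5.49, 4.13 and 6.37 CPM after blebbistatin, against 1.74 to 3.99 CPM in control. The 0 was in replicate 1, the library with few genes detected. The other 3 values lay above the control range, and the log2 difference was 0.36 ± 0.94 with all libraries and 0.79 ± 0.37 without that library. It was -1.16 ± 1.28 with limma voom, so its direction turned with the tool. Mrtfa measured 15.0, 7.53, 4.45 and 9.31 CPM, within and around the control values, with a log2 difference of -0.22 ± 0.40. Mrtfb measured 8.73, 25.3, 18.6 and 36.0 CPM, against 34.3 to 42.3 CPM in control. Here 3 of the 4 treated libraries lay under the control range, and the log2 difference was -0.77 ± 0.32, or -0.49 ± 0.20 without replicate 1 and -1.11 ± 0.29 without replicate 4.

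Markers of other cells moved with these values. The summed level of 10 stromal and theca markers was 291 to 1077 CPM in granulosa cells with blebbistatin, 9.23 to 345 CPM in control and 2.26 to 346 CPM with dextran. No stromal or theca marker was at 0 throughout any of these groups. Fhl2 was highest in blebbistatin replicates 3 and 1, the libraries with the highest stromal and theca sums, 785 and 1077 CPM. Some libraries had like stromal and theca sums but differed in other marker sums, and their Fhl2 values are given as a description. Their smooth muscle marker sums were 43.7 and 62.7 CPM in blebbistatin replicates 2 and 4. In control replicate 4 and dextran replicate 2 these sums were 22.8 and 33.2 CPM. In the same order, the immune cell marker sums were 1006 and 3.30 CPM, against 10.6 and 1.98 CPM. The granulosa cell marker sums were 21405 and 22041 CPM, against 27583.5 and 25173 CPM. The libraries were therefore not alike in make-up. Blebbistatin replicates 2 and 4, with stromal and theca sums of 291 and 293 CPM, had 24.8 and 40.6 CPM of Fhl2. Control replicate 4 and dextran replicate 2, with stromal and theca sums of 345 and 346 CPM, had 15.8 and 10.7 CPM. The sum of 7 smooth muscle markers was 43.7 to 193 CPM with blebbistatin, against 18.5 to 61.2 CPM in control and 15.6 to 35.2 CPM with dextran, and none of the 7 was at 0 throughout a group. The granulosa cell marker sum was lower, 16949 to 22041 CPM against 25865 to 32806 CPM in control, and mitochondrial reads made up 3.86% to 9.53% against 2.60% to 4.52%. The part of these shifts in the Fhl1 and Fhl2 values was not tested. Without blebbistatin replicates 1 and 2, which held the immune cell RNA, Fhl2 and Fhl1 had log2 differences of 2.49 ± 0.50 and -2.95 ± 1.06. This setting was chosen after seeing the data and left only blebbistatin replicates 3 and 4. The part of immune cell RNA in these values was not tested.

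**Figure D3:**
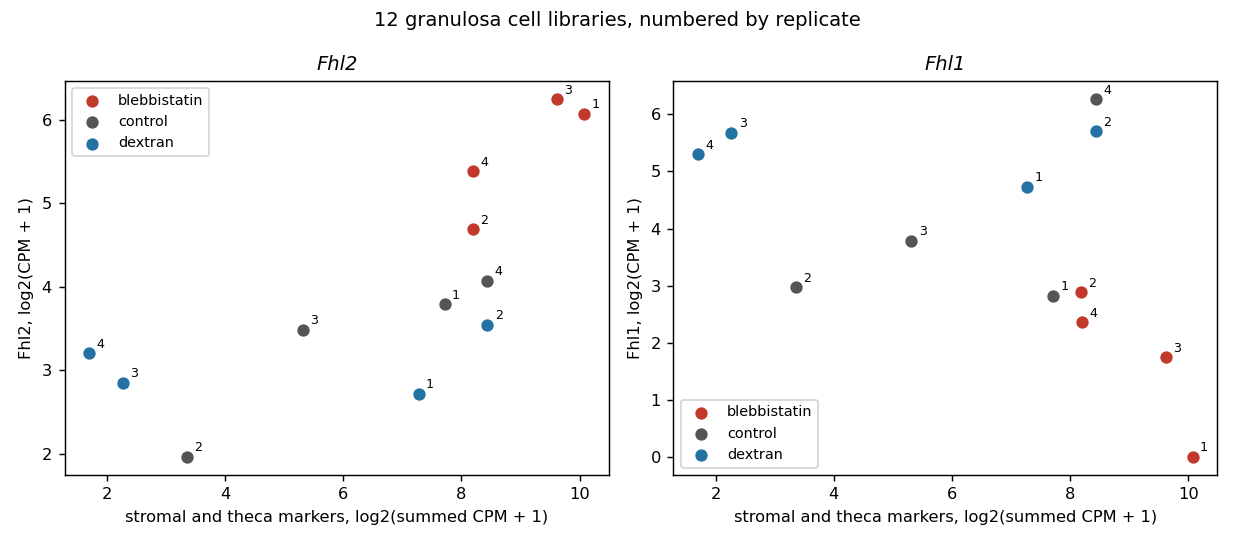
Level of Fhl2 (left) and Fhl1 (right), as log2(CPM + 1), against the summed level of 10 stromal and theca markers on the same scale in the 12 granulosa cell libraries, numbered by replicate. The blebbistatin libraries of replicates 2 and 4 lie beside control replicate 4 and dextran replicate 2 in this marker level, with higher Fhl2 and lower Fhl1. These libraries differed in their granulosa cell, immune cell and smooth muscle marker sums. For Fhl1, control replicate 4 is the 1 high control library, at 76.2 CPM. Control replicate 1, with a marker sum of 209 CPM, had 6.07 CPM of Fhl1, against 6.36 and 4.15 CPM in blebbistatin replicates 2 and 4. The part of the markers was not tested.

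Dextran is compared with the same 4 control libraries that entered the choice of the genes. None of the 5 members tested passed, and neither did any of the 15370 genes (0%; 523 genes at an unadjusted p under 0.05 in edgeR, and 42 adjusted in DESeq2). Fhl1 measured 25.6, 51.2, 50.3 and 38.6 CPM with dextran, above 3 of the 4 control libraries and below control replicate 4. Its log2 difference was 0.70 ± 0.96 (SE; edgeR, adjusted p = 0.9999), and without control replicate 4 it was 2.27 ± 0.94 (adjusted p = 0.8011). Fhl2 measured 5.58, 10.7, 6.21 and 8.22 CPM, inside the control range, with a log2 difference of -0.44 ± 0.47 (edgeR, adjusted p = 0.9999). Srf measured 2.90, 2.82, 4.61 and 4.30 CPM, Mrtfa 9.31, 10.5, 5.69 and 11.8 CPM, and Mrtfb 35.0, 39.0, 31.1 and 34.1 CPM. All 3 overlapped control, with log2 differences of 0.24 ± 0.94, -0.19 ± 0.40 and -0.12 ± 0.32 (edgeR, adjusted p = 0.9999 for each).

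Set directly against dextran, blebbistatin-treated granulosa cells differed in Fhl1 and Fhl2 without overlap. Fhl2 was 2.75 ± 0.49 higher on the log2 scale and Fhl1 was lower, at -3.69 ± 1.07, or -3.26 without blebbistatin replicate 1. Among the 15370 genes 1.84% were higher and 3.78% lower without overlap, and no gene passed adjustment. These values use the libraries that chose the genes and are given without a test. Mrtfb had a log2 difference of -0.65 ± 0.32 with overlapping groups, and those of Srf (0.13 ± 0.94) and Mrtfa (-0.04 ± 0.40) were within their SE.

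In oocytes the libraries were not used to choose the genes, and Srf, Mrtfa and Mrtfb could be tested. None of the 3 passed for either treatment, and 0% of the 16749 genes tested did (edgeR; at an unadjusted p under 0.05, 686 for blebbistatin and 890 for dextran; adjusted in DESeq2, 16 and 4). Mrtfa measured 22.9, 21.9, 28.4 and 29.3 CPM after blebbistatin, against 16.3 to 20.6 CPM in control. The groups did not overlap, as for 1.21% of genes in this direction, and the log2 difference was 0.44 ± 0.19 (SE; edgeR, unadjusted p = 0.0346, adjusted p = 0.9999). With dextran Mrtfa measured 22.8, 25.6, 14.5 and 21.0 CPM, around the control values, at 0.15 ± 0.19 (adjusted p = 0.9991).

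Oocyte Srf measured 21.7, 18.7, 20.8 and 23.2 CPM after blebbistatin and 19.4, 23.2, 14.7 and 15.8 CPM with dextran. Both groups overlapped control, with log2 differences of -0.05 ± 0.19 (edgeR, adjusted p = 0.9999) and -0.26 ± 0.20 (adjusted p = 0.9734). Oocyte Mrtfb measured 37.2, 28.2, 33.2 and 40.1 CPM after blebbistatin and 41.1, 32.3, 34.6 and 40.4 CPM with dextran. Its log2 differences were -0.20 ± 0.15 (adjusted p = 0.9999) and -0.10 ± 0.15 (adjusted p = 0.9991). Between the treatments the oocyte groups overlapped for all 3 genes, with log2 differences, blebbistatin minus dextran, of 0.21 ± 0.20 for Srf, 0.29 ± 0.19 for Mrtfa and -0.10 ± 0.15 for Mrtfb (edgeR, adjusted p = 0.9992 for each).

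Whether the cell types differed in their response to dextran was tested as an interaction. It was -0.58 ± 0.87 for Srf, 0.24 ± 0.44 for Mrtfa and -0.08 ± 0.37 for Mrtfb, oocytes minus granulosa cells (edgeR, adjusted p = 1 for each), and 0% of the 20601 genes passed. The same quantity for blebbistatin, given without a test, was -0.46 ± 0.87 for Srf, 0.59 ± 0.44 for Mrtfa and 0.50 ± 0.38 for Mrtfb. For Fhl1 and Fhl2 no interaction is given, since the treated oocytes held too few counts for a fold.

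**Figure D4:**
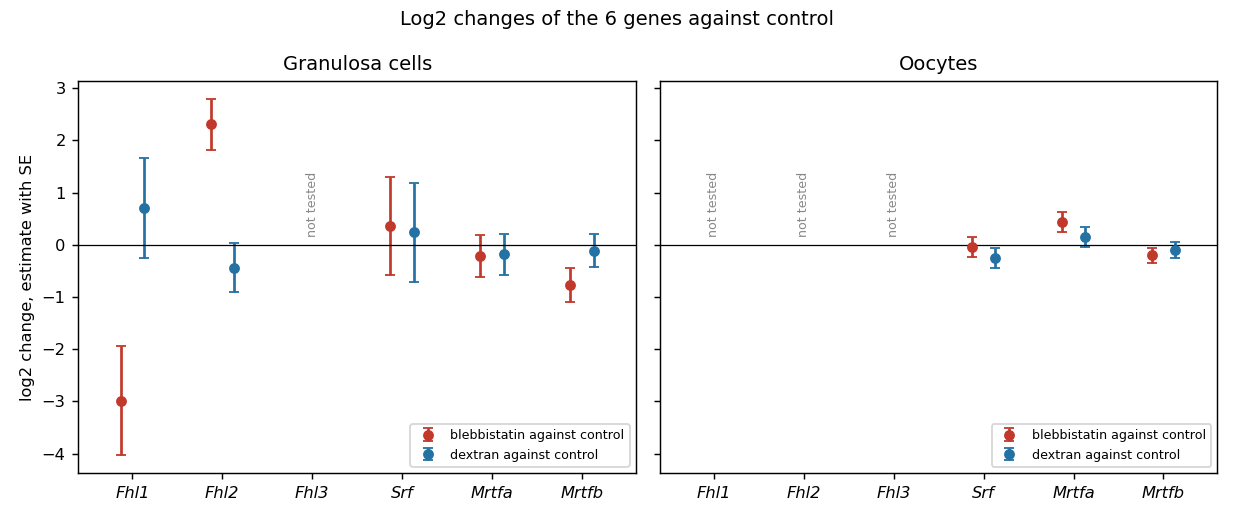
Log2 differences from control, with SE, of the 6 genes in granulosa cells (left) and oocytes (right), for blebbistatin (red) and dextran (blue). Fhl2 (2.31) and Fhl1 (-2.98) with blebbistatin in granulosa cells are the contrast that chose the genes, genes marked not tested failed the filter on low counts, and the oocyte estimates of Srf, Mrtfa and Mrtfb lie within 0.44 of 0.

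Genes downstream of the SRF and MRTF pair were described with a list of 30 known targets, mostly of the actin cytoskeleton. In control oocytes 24 of 30 were lower than in granulosa cells and 1 was higher (edgeR), against 32.9% and 44.4% of all genes, with a median log2 difference of -2.44 against 0.41 over all genes. Only 22 of the 30 passed the filter in oocytes, and for the rest a lower value there followed from the filter. The counts and the median include them and are a description. Counted so, most targets were lower in the cell type that had more Srf and Mrtfa transcript. Examples are Actb, which encodes cytoplasmic actin, at -3.35 ± 0.25 (adjusted p = 1.78e-10) and Actg1 at -2.38 ± 0.24 (adjusted p = 1.668e-08). The 1 higher gene was Pdlim7, which encodes a LIM protein of actin fibres, at 1.50 ± 0.27 (adjusted p = 3.643e-05).

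In granulosa cells with blebbistatin, beside the higher Fhl2, 28 of the 30 targets had a positive log2 difference, against 45.4% of all genes, and 9 were higher without overlap, against 2.46% of all genes. The median was 0.62 against -0.05 over all genes, and none passed adjustment. This list and the other gene lists were chosen with earlier results of these data known. This contrast also chose the members, so the shares are a description and not a test. Tpm1, which encodes a tropomyosin, ranged from 443 to 820 CPM against 107 to 235 CPM in control, a log2 difference of 1.80 ± 0.32. Mylk, which encodes myosin light chain kinase, ranged from 96.9 to 247 CPM against 20.5 to 44.2 CPM, at 2.29 ± 0.53. The list shares Actg2, Cnn1 and Lmod1 with the smooth muscle markers, whose sum reached higher after blebbistatin, and their part in the list's median was not tested. Each of these shared genes overlapped control, so none is among the 9 without overlap. The part of cells other than granulosa cells in the values of the other targets, those 9 included, was not tested either. With dextran 20 of 30 were positive (49.5% of all genes), at a median of 0.25 against -0.004, and none passed. In oocytes 22 of the targets were tested, 13 positive with blebbistatin (48.6% of all genes; median 0.02) and 9 with dextran (50.5% of all genes; median -0.09), and none passed.

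**Figure D5:**
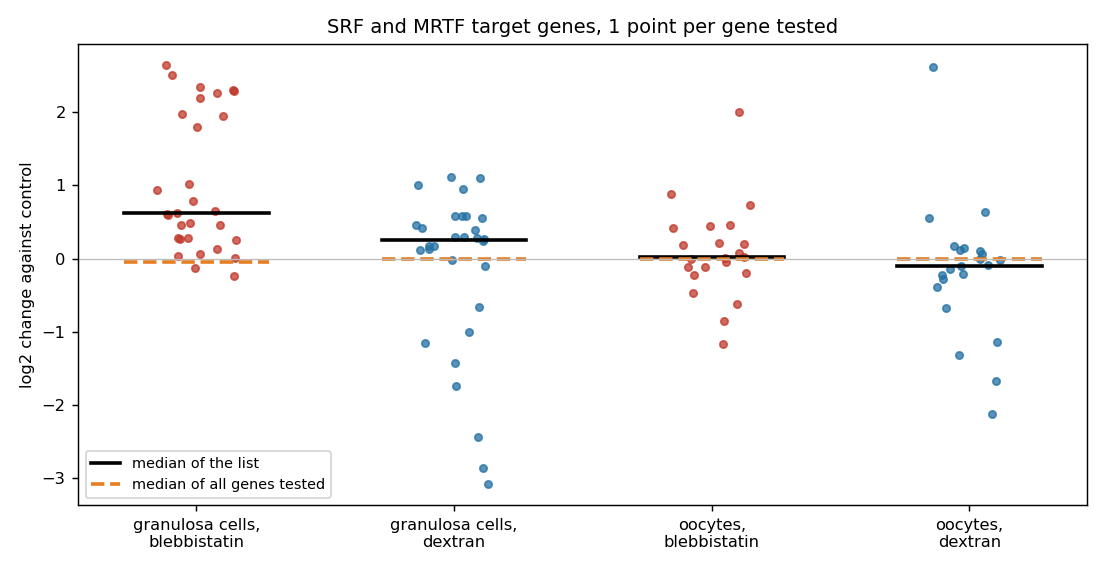
Log2 difference from control of each tested gene of the SRF and MRTF target list (points), with the list's median (black line) and the median of all genes tested (dashed line), by cell type and treatment. The points of granulosa cells with blebbistatin lie mostly above 0 (28 of 30), and those of oocytes lie on both sides.

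A list of 23 further SRF cofactors and regulators of actin and of MRTF transport had 22 genes tested in granulosa cells. With dextran 20 were positive and 3 were higher without overlap (2.67% of all genes), Rhob, Rhoa and Myocd. Rhoa, a GTPase that drives actin polymerisation, ranged from 340 to 366 CPM against 258 to 282 CPM in control, a log2 difference of 0.40 ± 0.08 that did not pass (edgeR, adjusted p = 0.4795). Rhob, its relative, was at 1.73 ± 0.31 (adjusted p = 0.2954). With blebbistatin 16 were positive and 1 of 22 was higher without overlap (2.46% of all genes), a share from which nothing is read. This was Mical2, whose enzyme oxidises actin in the nucleus, at 3.32 ± 1.07. In oocytes 4 of 20 were positive with blebbistatin and 8 of 20 with dextran, and none passed. Between control cell types 8 of 22 were higher and 10 lower in oocytes, against 44.4% and 32.9% of all genes. Only 20 of the 22 passed the filter in oocytes, and for the rest a lower value there followed from the filter. Limk2, which encodes a kinase of cofilin, was at 2.98 ± 0.18 (edgeR, adjusted p = 3.587e-12) and Kpna2, an importin gene, at 2.04 ± 0.13 (adjusted p = 7.192e-12). Myocd, the gene of myocardin, the founding relative of the MRTFs, was at -3.95 ± 0.63 (adjusted p = 1.026e-05), with 107 ± 35.2 CPM (SD, n = 4) in granulosa cells.

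Among 24 other LIM-domain genes, the closest relatives are Fhl4 and Fhl5. Fhl5, which encodes a coactivator of CREM known from testis, had 37, 54, 56 and 38 counts in control oocytes, 65, 32, 16 and 32 after blebbistatin and 31, 51, 56 and 45 with dextran, and 0 in all 12 granulosa cell libraries. Its distribution was the reverse of that of Fhl1 and Fhl2. Against a floor of 3 counts over the 4 granulosa cell libraries, Fhl5 was at least 75.7-fold higher in control oocytes, given with no test because it passed the filter only through oocytes. Fhl4 had low counts in both cell types (179 and 87 over the control libraries) and did not differ beyond its spread (edgeR, adjusted p = 0.7826). Of the 23 list genes tested between control cell types 3 were higher in oocytes and 11 lower, against 44.4% and 32.9% of all genes. Only 20 of them passed the filter in oocytes and 22 in granulosa cells. For the rest the direction followed from the filter. In granulosa cells 13 of 22 were positive with blebbistatin and 11 of 22 with dextran. In oocytes 7 and 9 of 20 were positive, and none passed for either treatment in either cell type.

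The genes most like Fhl2 across the 12 granulosa cell libraries, by Pearson correlation of log2(CPM + 1) among 10306 genes averaging 5 CPM or more, were Cryab (r = 0.96), Fgl2 (0.95), Fblim1 (0.94), Gpc3 (0.93) and Col4a2 (0.93). Fblim1 encodes a filamin-binding LIM protein of focal adhesions, and measured 3.52 ± 2.51 CPM in control, 28.4 ± 22.9 CPM with blebbistatin and 3.87 ± 2.51 CPM with dextran (SD, n = 4). Cryab, a small heat shock protein gene, measured 11.2 ± 8.01, 41.2 ± 16.8 and 6.77 ± 3.15 CPM. The genes most like Fhl1 were Ldlrad3 (r = 0.95), Tes (0.93), Gm15663 (0.92), Adgrv1 (0.92) and Klhl9 (0.92). Tes encodes a LIM protein of focal adhesions, and measured 81.8 ± 38.4 CPM in control, 35.4 ± 17.5 CPM with blebbistatin and 124 ± 45.5 CPM with dextran. These correlations describe 12 libraries in 3 groups that share the treatment differences, the library make-up and the libraries that chose the genes.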

How the data were processed

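RNA was sequenced from 24 libraries in 6 groups of 4. The authors deposited 1 table of estimated counts per cell type, made with salmon per the labels. The submitters' processing notes give the build as GRCm39. For the aligner, annotation release and strandedness, nothing is given in the sources used here. Gene symbols and Ensembl identifiers are those of the deposited tables. Promoters and their coordinates come from RefSeq (GRCm38.p6), were matched by symbol alone and were joined to no coordinate of the files. Every sample column was used (0 left out), and no row lacked a gene.

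Counts were rounded, filtered (filterByExpr) and scaled with TMM. They were fitted with edgeR 4.0.16 in R 4.3.3 (robust quasi-likelihood), each cell type over its 12 libraries and both together over 24. Benjamini-Hochberg adjustment covered all genes tested (15370 in granulosa cells, 16749 in oocytes, 20601 together; threshold 0.05). CPM use the TMM-scaled library size, intervals of count ratios are exact binomial, and neither covers more than counting error, since the reads carry no molecular identifiers. The floor is 3 counts, or 0.136 to 0.215 CPM. An SE is the log2 difference divided by the square root of the F statistic. Marker sums are in the same CPM.

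The members and lists were chosen with earlier results of these data known. The text names all members; up to 2 list genes per direction by smallest adjusted p, or the 2 of smallest unadjusted p where none passed; the 5 genes most correlated with Fhl1 and with Fhl2; and any gene that makes up a count of 5 or fewer. Fhl4, Tes and Myocd with dextran fall outside the rule for lists and were named after their values were seen. Alternatives were other scaling (RLE), no filter, DESeq2 1.42.0, limma voom (limma 3.58.1), a replicate block, only the groups compared, and leaving out libraries. The fits were tested on simulated data, and no replicate pair was alike within sampling noise (lowest chi-square 12.4 per gene).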

Additional observations from a re-analysis of the deposited data

Results flagged for a closer look

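Groups of 4 libraries were screened for a library whose gap to its nearest neighbour was large against the group's range. For normally distributed values chance does this in about 1 in 20 groups. Of 32 groups with any spread 4 held such a library. Fhl1 in granulosa cells was at 76.2 CPM in control replicate 4, against 6.07 to 12.8 CPM in the other 3 control libraries. That library also had the highest stromal and theca marker sum of the control libraries, 345 CPM, and its part in the Fhl1 value was not tested. In oocytes, Fhl2 was at 0.106 CPM in control replicate 2 (2 counts) and at 0.066 CPM in dextran replicate 1 (1 count), and Fhl3 was at 0.121 CPM in dextran replicate 3 (2 counts), each with 0 in the other 3 libraries of its group and under the floor of 3 counts. Where the other 3 libraries are at 0, the gap always equals the range, so these oocyte flags were fixed in advance. The rate of 1 in 20 does not apply to them, and 4 of 32 is not read against it.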

How the results depend on the processing

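Of 537 alternative values of 35 member results, 517 kept direction and side of the threshold (or, untested, stayed within the spread), 2 no longer passed (Mrtfa, and Fhl1, for which no test is used, between cell types with the replicate block), 11 reversed and 7 moved. The block was fitted within each cell type, so the 2 lost calls refer to values fitted for replicate 1 only. The 517 include 12 of 13 values of Fhl1 and 13 of 13 of Fhl2 between cell types. These were scored on an adjusted p for which no test is used here, so they are no measure of stability. The 11 reversals were of tested estimates near 0. Srf in oocytes with blebbistatin ran from -0.136 to 0.0508 with each library left out, and the dextran interaction of Mrtfb from -0.15 to 0.14, with 0.0425 under RLE and 0.0423 in DESeq2. Among untested values Srf changed sign with limma voom, from 0.36 to -1.16 with blebbistatin in granulosa cells, from 0.13 to -1.40 against dextran and from -0.46 to 1.00 in the blebbistatin interaction. Control replicate 4 decided the size of the Fhl1 difference in granulosa cells, as given above.

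Counts of genes called depended on the tool. For blebbistatin in granulosa cells (1 gene) they were 23 without a filter, 377 in DESeq2, 0 with the replicate block, 0 with only the groups compared, 26 without blebbistatin replicates 1 and 2 together (chosen after seeing the data), and 0 to 115 with 1 library left out, the 115 without blebbistatin replicate 2. For dextran in granulosa cells (0) they were 4, 42 and, with only the groups compared, 1. For blebbistatin against dextran in granulosa cells (0) they were 1 without a filter, 214 in DESeq2, 12 without both libraries, and 0 to 3 with 1 left out. In oocytes blebbistatin (0) gave 4 without a filter and 16 in DESeq2, and dextran (0) gave 4 in DESeq2. The dextran interaction (0) gave 243 in DESeq2, 34 with the block and 0 to 91 with 1 library left out, the 91 without oocyte control replicate 4. The blebbistatin interaction (10) gave 382 in DESeq2, 18 with limma voom, 88 with the block and 2 to 103, the 103 without granulosa cell blebbistatin replicate 2. The cause was not tested.

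Within a cell type, a pairing of same-numbered libraries was neither shown nor excluded. Pairing between granulosa cell and oocyte libraries of the same number was not checked. Of 12 pairs per cell type 4 correlated over 0.1 in each (r from -0.18 to 0.32 in granulosa cells and -0.13 to 0.18 in oocytes). Depth limits Fhl3 in both cell types and Fhl1 and Fhl2 in oocytes, where no difference between treatments was detectable.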

Other observations

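SRF also acts with ternary complex factors on early response genes. Of 10 such genes 8 were tested in granulosa cells. With blebbistatin 1 had a positive log2 difference (median -0.49 against -0.05 over all genes) and with dextran 7 did (median 0.54 against -0.004), and none passed in edgeR. Both comparisons share the control libraries. In oocytes 3 of 6 were positive with blebbistatin and 2 of 6 with dextran, and none passed. Only 6 of the 8 passed the filter in oocytes, and for the rest a lower value there followed from the filter. In control oocytes 7 of 8 were lower than in granulosa cells, against 32.9% of all genes. They included Ier2, an immediate early gene, at -3.52 ± 0.33 (edgeR, adjusted p = 6.412e-09), and Mcl1, which encodes a survival factor, at -2.15 ± 0.23 (adjusted p = 3.227e-08).

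Of 9 genes whose proteins are known to bind FHL2, 8 were tested in granulosa cells. Sphk1, which encodes sphingosine kinase, was higher without overlap in both treated groups, with 8.11 to 15.4 CPM after blebbistatin and 6.07 to 19.5 CPM with dextran against 0.794 to 5.22 CPM in control. Its log2 differences were 2.35 ± 0.62 and 2.48 ± 0.62, and the second did not pass (edgeR, adjusted p = 0.802). Both use the same controls. With dextran Jun (1.35 ± 0.38, adjusted p = 0.9073) and Itgb1 (0.29 ± 0.10, adjusted p = 0.9999; edgeR) were also higher without overlap, so 3 of 8 were, against 2.67% of all genes. After blebbistatin 1 of 8 was higher and 1 lower without overlap, against 2.46% and 4.14%. Foxo1, a forkhead factor gene, was lower without overlap after blebbistatin, 192 to 242 CPM against 252 to 316 CPM. In all 4 of the 8 were positive with blebbistatin and 5 with dextran, 1 and 4 of 7 in oocytes, and none passed. Between control cell types 5 of 8 were lower in oocytes and 0 higher, against 32.9% and 44.4% of all genes. Only 7 of the 8 passed the filter in oocytes, and for the rest a lower value there followed from the filter. Jun, an AP-1 gene, was at -6.73 ± 0.80 (edgeR, adjusted p = 2.061e-07) and Itgb1, an integrin gene, at -1.94 ± 0.23 (adjusted p = 2.268e-07).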
